A study of Rattus norvegicus and Sus scrofa and Bos taurus with 188 samples.

Results

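Molecular chaperones are the proteins that fold, hold and sort other proteins, and 91 of the 15877 gene names in this transcriptome of pig morulae belong to their families by name. Members were all names that begin with HSP and a letter from A to H or a digit, DNAJA, DNAJB, DNAJC, CCT with a digit, BAG, PFDN, HSF or PDIA with a digit, together with TCP1, CALR and CANX. They cover heat shock proteins, J-proteins, chaperonins, prefoldins, BAG co-chaperones, heat shock factors and the lectins and disulfide isomerases of the endoplasmic reticulum (ER). The rule used names only and no measured value, though it was set with earlier results of these data known. It also took 5 names that stand outside these families or only beside them, which are described last.

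The study as a whole followed DNA methylation, histone marks and RNA through gametes and early embryos of several mammals. The embryos described here were pig morulae whose titles carry the mark PG, which the labels of sister samples spell out as parthenogenetic activation. Such an embryo develops from an egg activated with no sperm and so carries a maternal genome only, which limits it as a model of a fertilised morula. The group has 4 libraries made by Smart-seq2, which turns polyadenylated RNA from very small inputs into cDNA of full length. The labels give no breed, culture or treatment for them and name the stage as morula.

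The authors merged the 4 libraries into 1 column of FPKM, a unit of sequenced fragments scaled to the length of the transcript and the size of the library. No spread between libraries, SD or test can be had from 1 merged column, so every value is a single level, and genes are compared with one another within these embryos. The depth is unknown. A gene with several transcript rows is given by its highest row. All 10 genes listed as early embryo markers were at 1 FPKM or more, where 48.8% of all gene names were. They ran from 30.9 FPKM for SALL4 to 194 FPKM for TFAP2C and include H1FOO, an oocyte linker histone gene, at 90.3 FPKM. These 10 genes were chosen with earlier results of these data known, so their levels are no test of cell identity. Among 12 measured markers of cumulus and granulosa cells, which surround the egg, 2 reached 1 FPKM, FST at 16.9 FPKM and VCAN at 10.2 FPKM. FSHR and TNFAIP6 were listed at 0, and the list's median was 0.0325 FPKM. The part of such cells in the levels of the members was not tested.

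Chaperones of the HSP70 family bind short hydrophobic stretches of unfolded protein in a cycle driven by ATP. J-proteins deliver the client and trigger the hydrolysis, and exchange factors such as the HSP110 and BAG proteins release it. Chaperonins are barrels that enclose a client while it folds, prefoldin hands clients such as actin and tubulin to the cytosolic barrel, and small heat shock proteins hold unfolded protein without ATP. Heat shock factors are the transcription factors of the stress-induced members. In the mouse, HSP70 is known as one of the earliest products of the embryonic genome.

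Of the 91 members 72 (79.1%) stood at 1 FPKM or more, where 48.8% of all gene names did. That 48.8% is also the background for each count of a class, compartment or partner list below. Heat shock factors and the vesicle and endosome members, at 50.0% each, came near it, and the names outside the families were at 60.0%. The median member was at 7.07 FPKM and the median of all gene names at 0.916 FPKM. Some 40 members (44.0%) reached 10 FPKM, against 20.2% of all names, and 13 (14.3%) reached 100 FPKM, against 3.14%. Another 32 lay between 1 and 10 FPKM, 14 had values under 1 FPKM that were not 0, and 5 were listed at 0. Of these 5, 2 lie in a run of zeros that ends the table and were not interpreted. Without the genes of that run, 80.9% of members and 49.5% of all names reached 1 FPKM. With all their rows summed, the members took 2.65% of the FPKM of the table.

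**Figure D1:**
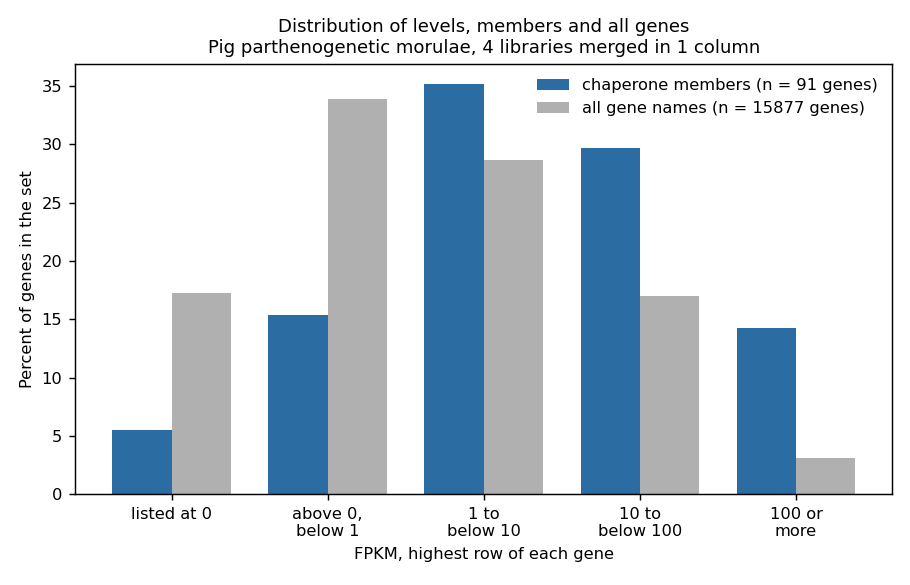
Percent of genes in each range of FPKM (highest row of a gene), for the 91 members in blue and all 15877 gene names in grey. The members are more frequent than all names in each range from 1 FPKM up, with 14.3% of them at 100 FPKM or more against 3.14%.

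The levels were concentrated in a few genes. HSPE1 led the members at 1495 FPKM and took rank 20 among all gene names, and HSPA8 followed at 1479 FPKM with rank 21. With rows summed, these 2 genes held 52.9% of the FPKM of all members and the 10 highest held 76.6%. The 13 members at 100 FPKM or more were, in descending order, HSPE1, HSPA8, HSPD1, TCP1, HSPA9, CCT8, CCT3, DNAJA1, DNAJC19, CCT2, CCT4, DNAJB1 and DNAJB6. Among them were 5 subunits of the cytosolic chaperonin, the mitochondrial chaperonin pair, 2 HSP70 genes and 4 J-proteins.

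**Figure D2:**
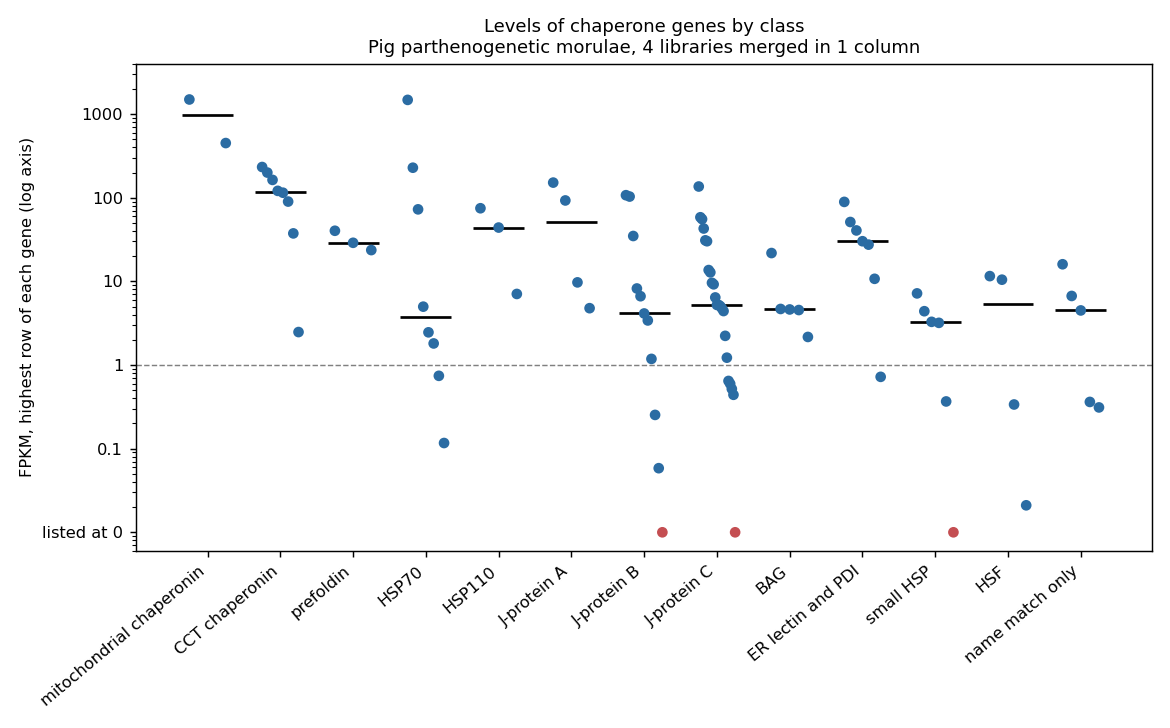
FPKM of each member (highest row, log axis) by protein class, with 1 point per gene, a black line at the class median over the genes shown and a dashed line at 1 FPKM. Red points are the 3 members listed at 0 within the main body of the table, and the 2 members in the closing run of zeros are not drawn. The mitochondrial chaperonin and CCT classes stand highest, while the HSP70 points run from 0.117 to 1479 FPKM.

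The cytosolic and ER forms of HSP90 could not be described from this table. HSP90AA1, the stress-inducible cytosolic form, has 3 rows, all within the run of 474 rows at 0 that ends the table and holds 215 gene names with no row elsewhere, so its 0 was not interpreted. The same holds for BAG5. The constitutive cytosolic form HSP90AB1 and the ER form HSP90B1 were not analysed here. Partners of HSP90 were measured, and 13 of the 14 co-chaperone genes listed stood at 1 FPKM or more, around a median of 30.2 FPKM. They were led by NUDC at 178 FPKM, PTGES3, the p23 co-chaperone that stabilises the closed HSP90 dimer, at 173 FPKM, and the cyclophilin gene PPID at 119 FPKM. FKBP8, an immunophilin of the outer mitochondrial membrane, was at 0.863 FPKM.

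Of 8 HSP70 genes 6 were at 1 FPKM or more, and their levels ran from 0.117 to 1479 FPKM. HSPA8, the constitutive cytosolic HSP70, stood at 1479 FPKM. HSPA9, the mitochondrial HSP70 that pulls proteins through the inner membrane, stood at 229 FPKM, and HSPA5, the ER form also known as BiP, at 72.6 FPKM. HSPA8 was thus 6.47-fold above HSPA9 and 20.4-fold above HSPA5. The remaining genes were far lower. HSPA13, an ER-associated form, stood at 4.99 FPKM, HSPA12B, a distant relative, at 2.46 FPKM, and HSPA2, known from spermatogenesis, at 1.81 FPKM. HSPA12A was at 0.743 FPKM and HSPA1L, a testis form, at 0.117 FPKM. The stress-inducible genes HSPA1A and HSPA1B were not analysed here. HSP70 genes resemble one another in sequence, and no source used here says how reads matching several of them were assigned.

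HSPA8 has 7 rows, and 89.3% of its sum of 1655 FPKM was in 1 of them, transcript ENSSSCT00000016508.3. Of the other rows, 1 stood at 121 FPKM, others at 32.7, 20.6 and 1.94 FPKM, and the last 2 at 0.102 and 5.78e-22 FPKM. HSPA9 had rows of 229 and 51.6 FPKM. These are assignments of reads to annotated transcripts, and the split is less certain than the sum.

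HSP110 proteins are large relatives of HSP70 that act as its exchange factors. All 3 genes were expressed, HSPA4 at 74.9 FPKM, HSPH1 at 44.0 FPKM and HSPA4L, known from germ cells, at 7.07 FPKM. Their median, 44.0 FPKM, lay 3.31 log2 units above that of the 8 HSP70 genes on the log2(FPKM + 1) scale, although the highest HSP70 genes exceeded all of them.

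Of the BAG genes, whose products share a domain that binds HSP70, all 5 outside the closing run were at 1 FPKM or more. BAG1, which links HSP70 to the proteasome, stood at 21.8 FPKM. BAG3, the partner of HSPB8 in selective autophagy, was at 4.68 FPKM, BAG6, which guards membrane proteins before insertion, at 4.62 FPKM, BAG4 at 4.54 FPKM and BAG2, an inhibitor of the ubiquitin ligase CHIP, at 2.17 FPKM. The 3 rows of BAG6 were nearly even, at 4.62, 3.72 and 3.21 FPKM, and sum to 11.5 FPKM. BAG1 thus stood 4.66-fold above BAG3, and the next 3 lay close to one another.

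J-proteins carry the J domain that stimulates HSP70 and are classed by the rest of their structure. Of 38 measured genes 30 (78.9%) were at 1 FPKM or more, with a median of 5.83 FPKM. All 4 of class A, 8 of 11 of class B and 18 of 23 of class C reached it. Classes A and B together lay 0.30 log2 units above class C in the median of log2(FPKM + 1), which is small beside the range within each class. Class A alone had a median of 51.3 FPKM, class B 4.13 FPKM and class C 5.23 FPKM.

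The highest cytosolic J-proteins were those of general protein folding. DNAJA1 stood at 152 FPKM, DNAJB1, the main stress-inducible J-protein, at 107 FPKM, DNAJB6, which prevents aggregation, at 103 FPKM and DNAJA2 at 92.8 FPKM. With rows summed the order turned, to DNAJB6 (162 FPKM), DNAJA1 (152 FPKM), DNAJA2 (143 FPKM) and DNAJB1 (132 FPKM). HSPA8 was 9.75-fold above DNAJA1. The list of HSP70 partners also holds ER and mitochondrial genes, such as HYOU1 and GRPEL2. All 10 measured genes of that list were at 1 FPKM or more, with a median of 7.59 FPKM. SGTA, a co-chaperone that hands over membrane proteins, led them at 40.5 FPKM. DNAJA4 was at 4.78 FPKM, 31.7-fold below DNAJA1 by highest rows and 18.0-fold by summed rows. DNAJB5 (4.13 FPKM) and DNAJB4 (3.41 FPKM) were low, and DNAJB2, known from neurons, was at 1.18 FPKM. The sperm and testis J-proteins DNAJB13 and DNAJB7 were at 0.253 and 0.0584 FPKM, and DNAJB8, likewise known from testis, was listed at 0.

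Class C J-proteins of the cytosol and nucleus ran from 1.22 to 58.4 FPKM. DNAJC9, a histone co-chaperone, stood at 58.4 FPKM, DNAJC2, which acts on the emerging chain at the ribosome, at 55.5 FPKM and DNAJC8, a spliceosome-associated protein, at 30.9 FPKM. DNAJC17, also linked to splicing, was at 5.23 FPKM (9.04 FPKM with its 4 rows summed), and DNAJC12, a co-chaperone of aromatic amino acid hydroxylases, at 1.22 FPKM. Outside that range of genes are the class C J-proteins with no assigned compartment. Of these, DNAJC24, which takes part in the diphthamide modification of elongation factor, stood at 12.8 FPKM. DNAJC27, a small GTPase with a J domain, was at 2.23 FPKM and DNAJC28 at 0.597 FPKM.

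J-proteins of vesicles and endosomes were at the low end. DNAJC5, the vesicle protein CSP, stood at 4.76 FPKM and DNAJC13, an endosomal sorting protein, at 4.42 FPKM. DNAJC6, the neuronal auxilin that uncoats clathrin vesicles, was at 0.441 FPKM, with 9 rows that sum to 1.09 FPKM. GAK, the widely expressed auxilin, taken from the list of HSP70 partners, stood at 1.85 FPKM. DNAJC5B, known from testis, was listed at 0.

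All 8 members assigned to mitochondria stood at 1 FPKM or more, and their median was the highest of the compartments, at 89.5 FPKM. The chaperonin pair led it: HSPE1, the lid of the mitochondrial folding chamber, at 1495 FPKM and HSPD1, which forms the chamber, at 451 FPKM. HSPE1 was 3.32-fold above HSPD1 by highest rows and 5.14-fold by summed rows. Its 2 rows stood at 1495 FPKM, transcript ENSSSCT00000017506.3, and at 1127 FPKM, while HSPD1 had 1 row at 451 FPKM and the others at 32.9, 24.4 and 2.44 FPKM. HSPE1 encodes a short protein, and no transcript lengths were used here, so the part of length scaling in this gap was not tested.

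The J-proteins of the mitochondrial import motor were DNAJC19 at 136 FPKM and DNAJC15 at 42.9 FPKM. DNAJC11, linked to the organisation of the inner membrane, stood at 30.2 FPKM. DNAJA3, the J-protein of the matrix folding cycle, was lower at 9.73 FPKM, and DNAJC30 was at 6.43 FPKM. Among partners outside the name rule, the exchange factor GRPEL2 and the iron-sulfur cluster J-protein HSCB each stood at 28.4 FPKM. All 8 further mitochondrial proteostasis genes listed were at 1 FPKM or more, with a median of 9.88 FPKM, led by the unfoldase CLPX (25.7 FPKM), the protease YME1L1 (17.1 FPKM) and the mitochondrial HSP90 TRAP1 (12.9 FPKM).

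**Figure D3:**
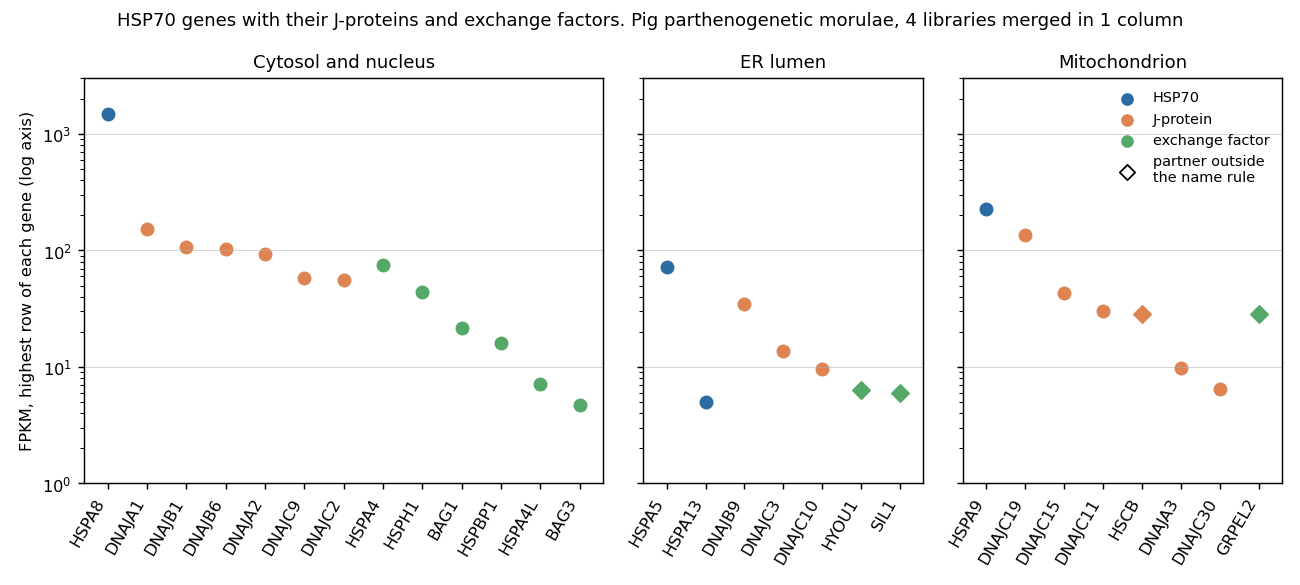
FPKM (highest row, log axis) of HSP70 genes in blue, J-proteins in orange and exchange factors in green, in the cytosol and nucleus, the ER lumen and the mitochondrion. Circles are members and diamonds are partners outside the name rule, and the cytosolic panel shows the 6 J-proteins with the highest levels and leaves out HSPA2, HSPA1L and the lower BAG genes. HSPA8 stands at 1479 FPKM, HSPA9 at 229 FPKM and HSPA5 at 72.6 FPKM, each above the J-proteins and exchange factors drawn in its panel.

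Among the 11 members of the ER lumen 10 were at 1 FPKM or more, with a median of 27.5 FPKM. The compartment lay 1.44 log2 units below mitochondria and 2.01 above the 50 members of the cytosol and nucleus in the median of log2(FPKM + 1). Without genes under 0.1 FPKM the latter difference was 1.25. The 50 members include HSP90AA1 and BAG5, whose 0 was not interpreted. Leaving out the closing run alone moved the median of the cytosol and nucleus from 6.15 to 7.13 FPKM, and the difference was not recomputed for that. By highest rows, 9 of the 50 members of the cytosol and nucleus (18.0%) reached 100 FPKM, against 3.14% of all names. None of the 11 in the ER lumen did, a small group beside that share, and CALR came to 104 FPKM with its rows summed. The lowest of the compartment, PDIA2, a pancreatic disulfide isomerase, was at 0.722 FPKM.

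The lectins of the ER retain new glycoproteins until they fold. PDIA3, the disulfide isomerase that works with the lectins, stood at 89.2 FPKM, calreticulin (CALR) at 51.3 FPKM and the membrane-bound calnexin (CANX) at 40.6 FPKM. CALR has rows of 51.3, 30.0 and 22.4 FPKM that sum to 104 FPKM, and the 6 rows of CANX sum to 77.4 FPKM. Other disulfide isomerases stood at 30.2 FPKM (PDIA5), 27.5 FPKM (PDIA4) and 10.7 FPKM (PDIA6), so PDIA3 was 8.31-fold above PDIA6. The founding member of the family, P4HB, from the list of ER folding enzymes, stood at 22.2 FPKM.

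ER J-proteins were led by DNAJB9, a repressor of the stress sensor IRE1, at 34.9 FPKM, with rows of 34.9 and 31.9 FPKM. DNAJC3, known as an inhibitor of the stress kinase PERK, stood at 13.7 FPKM and DNAJC10, a disulfide reductase of the degradation pathway, at 9.61 FPKM. The exchange factors of HSPA5 were lower than these, HYOU1 at 6.39 FPKM and SIL1 at 5.97 FPKM. The 7 J-proteins of the ER membrane ran from 0.518 to 9.22 FPKM. DNAJC1 stood at 9.22 FPKM, DNAJB14 at 8.22 FPKM, DNAJB12 at 6.65 FPKM, DNAJC18 at 5.23 FPKM and DNAJC14 at 5.05 FPKM. DNAJC16 (0.645 FPKM) and DNAJC22 (0.518 FPKM) were below 1 FPKM.

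Of 13 ER folding enzymes outside the name rule 10 were at 1 FPKM or more, around a median of 4.33 FPKM. They were led by MANF, a secreted stress protein, at 48.6 FPKM, P4HB, and ERP29 at 20.4 FPKM. UGGT1, the glucosyltransferase that returns unfolded glycoproteins to the lectins, was at 4.33 FPKM. Its relative UGGT2 (0.481 FPKM), the germ-cell calreticulin CALR3 (0.462 FPKM) and the collagen chaperone SERPINH1 (0.159 FPKM) were below it.

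The cytosolic chaperonin, called CCT or TRiC, is built of rings with 1 copy of each subunit, and it folds actin and tubulin. All 7 ubiquitous subunits measured were expressed, between 37.5 and 233 FPKM with a median of 121 FPKM. TCP1, the alpha subunit, stood at 233 FPKM, CCT8 at 200.0 FPKM, CCT3 at 163 FPKM, CCT2 at 121 FPKM, CCT4 at 115 FPKM, CCT5 at 90.0 FPKM and CCT7 at 37.5 FPKM. The highest and lowest differed 6.22-fold, and 6.16-fold with rows summed. CCT3 had a second row at 67.7 FPKM, and its sum of 233 FPKM came level with that of TCP1 (233 FPKM). CCT6B, a testis form of the zeta subunit, was at 2.48 FPKM, 15.1-fold below CCT7, and CCT6A, the ubiquitous zeta form, was not analysed here.

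**Figure D4:**
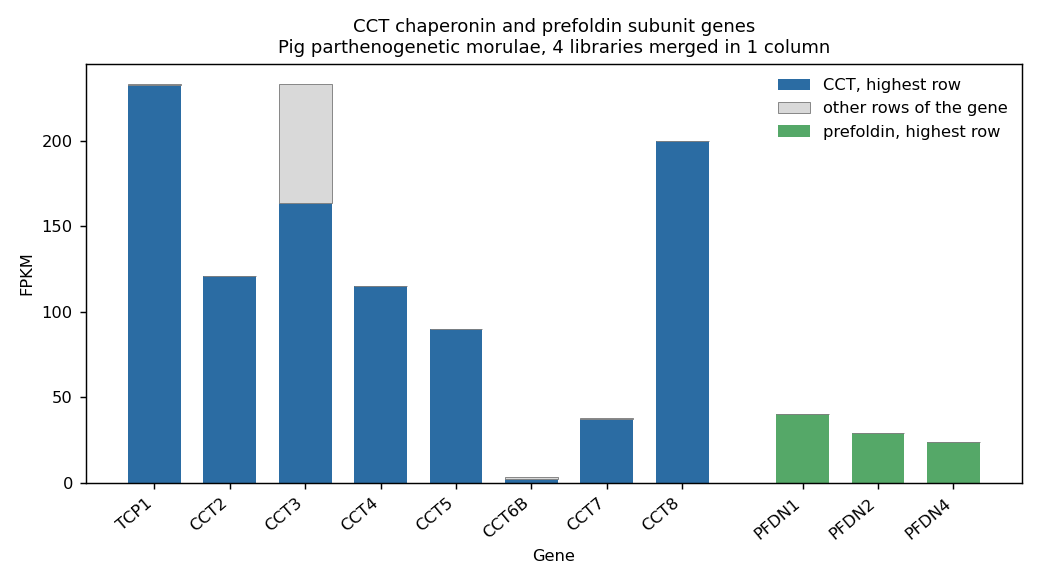
FPKM of CCT chaperonin subunits (blue) and prefoldin subunits (green), as the highest row of each gene, with the gene's other rows stacked in grey. The 7 ubiquitous CCT subunits lie between 37.5 and 233 FPKM, CCT6B is at 2.48 FPKM, and the 3 prefoldins lie between 23.7 and 40.3 FPKM.

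The 3 prefoldin subunits measured were closer to one another, PFDN1 at 40.3 FPKM, PFDN2 at 28.9 FPKM and PFDN4 at 23.7 FPKM, a range of 1.70-fold. PFDN5 and PFDN6 were not analysed here. The median CCT gene, CCT6B included, lay 1.99 log2 units above the median prefoldin gene on the log2(FPKM + 1) scale. Of the partners of both complexes all 10 measured were at 1 FPKM or more, with a median of 25.1 FPKM. UXT, a prefoldin-like protein, stood highest at 259 FPKM, followed by TXNDC9, a phosducin-like regulator of CCT, at 49.3 FPKM and the tubulin cofactor TBCC at 32.2 FPKM.

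Small heat shock proteins had the lowest median of the classes described, at 3.24 FPKM, against 0.916 FPKM for all gene names. Of 6 genes 4 (66.7%) were at 1 FPKM or more, against 48.8% of all names, and none reached 10 FPKM. HSPB1, the widely expressed member, stood at 7.18 FPKM, HSPB8 at 4.40 FPKM, and the muscle forms HSPB3 and HSPB6 at 3.28 and 3.19 FPKM. HSPB8 had rows of 4.40, 4.20 and 0.978 FPKM and came to 9.58 FPKM summed. HSPB9, a testis form, was at 0.367 FPKM, and HSPB7, known from heart, was listed at 0. The related lens and muscle gene CRYAB, from the list of other holdases, was also listed at 0. In that list BTF3, which binds chains leaving the ribosome, stood at 331 FPKM, HSBP1, a binding partner of HSF1, at 12.1 FPKM and the secreted chaperone CLU at 2.48 FPKM. The median HSP70 gene exceeded the median small heat shock gene by 0.10 log2 units, and with rows summed by 0.0013.

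Of the heat shock factors HSF1, the main activator of the heat shock response and known as a maternal factor in the mouse egg, stood at 11.6 FPKM. HSF2, a factor of development and gametogenesis, stood at 10.5 FPKM, with rows of 10.5 and 6.99 FPKM. By highest rows HSF1 was 1.10-fold HSF2, and by summed rows the order turned, with 12.3 FPKM for HSF1 and 17.5 FPKM for HSF2. HSF4, known from the lens, was at 0.337 FPKM and HSF5, known from spermatogenesis, at 0.0210 FPKM.

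Of the 5 names outside these families, 3 were at 1 FPKM or more. HSPBP1, an exchange factor of HSP70, stood at 16.0 FPKM, HSPB11, a subunit of the intraflagellar transport complex, at 6.69 FPKM and HSPBAP1, a protein that binds HSPB1, at 4.49 FPKM. CCT8L2, a CCT8-like gene, was at 0.362 FPKM. HSPG2, which encodes the matrix proteoglycan perlecan and is no chaperone, was at 0.311 FPKM. Without these 5 names, 69 of 86 members (80.2%) were at 1 FPKM or more.

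Of the 19 members below 1 FPKM, the closing run holds HSP90AA1 and BAG5. Several of the others were named above as forms known from testis or sperm, among them HSPA1L, HSPB9, DNAJB7, DNAJB8, DNAJB13, DNAJC5B and HSF5. Yet HSPA2 and CCT6B, also known from testis, stood above the threshold. HSPA12A at 0.743 FPKM and PDIA2 at 0.722 FPKM were the highest of the rest, and DNAJB2 at 1.18 FPKM and DNAJC12 at 1.22 FPKM were the lowest above the threshold. DNAJC5B, DNAJB8 and HSPB7 were listed at 0 in the main body of the table.

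How a gene's level is spread over its annotated transcripts bears on the choice of the highest row. Of the 72 members at 1 FPKM or more 24 have a single row. Among the 48 with more, the highest row held a median of 82.9% of the gene's sum, and in 16 it held 90% or more. The sum was more than 1.5 times the highest row in 13 genes, among them HSPE1, DNAJB6, DNAJA2, CALR, CANX, DNAJB9, HSF2, HSPB8 and BAG6. In BAG6 the highest row held 40.0%, the lowest share. TCP1, by contrast, had 99.95% of its sum in 1 row.

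**Figure D5:**
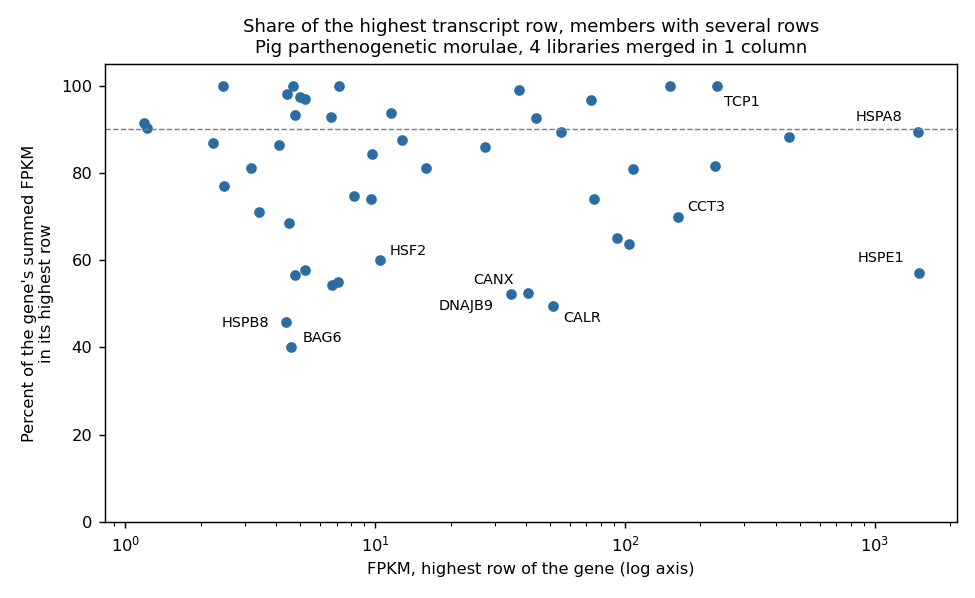
Percent of a gene's summed FPKM held by its highest row, against the FPKM of that row (log axis), for the 48 members at 1 FPKM or more with several rows, 1 point per gene, with a dashed line at 90%. HSPE1 (57.0%) and CALR (49.5%) lie well below HSPA8 (89.3%) and TCP1 (99.95%), so summing their rows changes their levels more.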

How the data were processed

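RNA of 4 pig morula libraries was analysed, all of 1 group, out of 188 samples in the labels. The other samples were not used here. The deposited table gives FPKM values by the authors, per the file headers, with 37571 transcript rows in 1 column that merges the 4 libraries, as its name says. The submitters' processing notes name TopHat2 2.1.1, Cufflinks 2.2.1 and the build susScr11 among tools for all data types. Which made this table, and whether reads or values were merged, is not stated in those notes. The table holds 4534 rows above 0 and under 1e-06 FPKM, so whole reads could not be recovered.

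With Python 3.11.15 and pandas 2.3.3, a gene was given by its highest row and called at 1 FPKM or more, and classes were compared by medians of log2(FPKM + 1), a scale that understates ratios of low genes. No test was possible on 1 column. Classes, compartments and partner lists were assigned by hand from general knowledge, and members and lists were chosen with earlier results of these data known. Any member may be named. Values are given for all members at 1 FPKM or more, for small classes, and for the highest members below. Of each partner list, the 3 highest genes and those against its majority are named, and some others beside their partners. Of the symbols assigned, 20 have no row. Counting and medians were tested on simulated data. Alternatives were thresholds of 0.5 and 5 FPKM, summed rows, scaling to TPM, a filter at 0.1 FPKM, a pseudocount of 0.1 and leaving out the closing run of zeros. Promoter motifs and proteins were not analysed here, since the reference tables used are of rat.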

Additional observations from a re-analysis of the deposited data

How the results depend on the processing

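No replicate spread exists, so a value was read as moved where it changed by more than 1.5 times, and a log2 difference where it shifted by more than the log2 of 1.5. No paired analysis was possible because the 4 libraries share 1 column, and leaving out a library could not be run for the same reason. The search for promoter motifs was also not run. Of 184 recomputed values 166 stayed within that factor, and no difference between classes changed sign. The count of members at 1 FPKM or more (72) became 77 at 0.5 FPKM (84.6%, against 56.5% of all names). It was 52 at 5 FPKM (57.1%, against 28.4%). With summed rows it was 73 (80.2%, against 50.6%), and after scaling to TPM 82 (90.1%, against 61.3%). Among genes at 0.1 FPKM or more alone, 85.7% of members and 68.1% of all names reached 1 FPKM. At 5 FPKM the counts were 3 for HSP70, 1 for small heat shock proteins, 5 for class B J-proteins, 1 for BAG, 26 for cytosol and nucleus, 3 for members with no assigned compartment and 0 for vesicles and endosomes. After scaling to TPM, all 5 names outside the families and all 10 with no assigned compartment were counted. With summed rows the medians were 10.7 FPKM for all members, 1566 FPKM for the mitochondrial chaperonin, 77.2 FPKM for class A J-proteins and 10.6 FPKM for cytosol and nucleus. Among genes at 0.1 FPKM or more the medians were 6.65 FPKM for class B J-proteins, 10.5 FPKM for heat shock factors, 11.02 FPKM for cytosol and nucleus and 4.42 FPKM for vesicles and endosomes, and the ER lumen lay 1.25 log2 units above cytosol and nucleus. The depth is unknown, so no limit can be given for members listed at 0.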
